A study of Mus musculus with 2 samples.

Results

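The genes described here are 33 members of the DNA replication and S phase machinery, chosen as a list by function and matched by symbol to the gene tables of the series. All 33 were found among the 27998 genes listed, and all 33 passed the minimum level used below. Their messages were counted in CD8+ T cells of OT-I mice, whose transgenic T cell receptor recognises an ovalbumin peptide. In the transient glucose restriction (TGR) library the cells had spent 20 h in 1 mM glucose, and in the control library they were at 11 mM glucose for the same time. What the libraries share, per the labels, is the source (spleen and lymph node of mice 8 to 12 weeks old), 48 h of activation with the peptide, and interleukin-2 at 100 U/ml. The sample descriptions instead give 3 days of growth before the exposure, and how many mice were used is not given in the sources used here. There was 1 library for each condition, so no test of the conditions was possible, no value has an error between cultures, and each difference describes these libraries only.

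DNA replication is prepared in G1, when the Cdc6 and Cdt1 proteins load the Mcm2 to Mcm7 helicase on chromatin, a step called licensing. In S phase the helicase is switched on by Cdc45 and the GINS complex, and polymerases, clamp, clamp loader and ligase copy the DNA while ribonucleotide reductase and its companions supply deoxynucleotides. Most of these genes are activated by E2F transcription factors once the retinoblastoma protein is inactivated, and activated CD8+ T cells are known for their fast division. The members were grouped by role as 9 licensing genes, 14 replication fork genes, 5 nucleotide supply genes and 5 genes of repair and chromatin. In the GRCm38 annotation, the genes the results turn on most are Gmnn (chr13:24751845-24761923, minus strand), Rrm1 (chr7:102441695-102469771, plus strand), Dut (chr2:125247190-125258608, plus strand), Prim1 (chr10:128015168-128030037, plus strand) and Neil3 (chr8:53586867-53639065, minus strand). Exons of Mcm7, Cdc45, Gins2, Pole, Rfc2, Rfc4, Fen1, Lig1, Tk1 and Slbp overlap a gene on the opposite strand, and Tyms and Pcna have annotated pseudogenes, so their values may include messages of another gene.

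RefSeq promoter windows (GRCm38.p6) were matched for 28 members, and the 250 bases before each annotated start were searched. Mcm4, Gmnn, Gins2, Pole and Rfc2 are named only. The letters searched were TTTCCCGC, TTTCGCGC, TTTGCCGC and TTTGGCGC, forms of the E2F consensus, on both strands. They were found for 6 of the 28 members, and for 2.16% of all 27025 genes with such a window. The 6 were Mcm5, Mcm6, Mcm7, Cdc6, Pola1 and Uhrf1. The windows of Mcm5, Mcm6 and Pola1, which lie wholly outside the annotated gene, are shown with the matches in capitals, because E2F is the known activator of this gene group. In Mcm5 and Mcm6 matches on opposite strands overlap.

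Mcm5, chr8:75109259-75109508, plus strand: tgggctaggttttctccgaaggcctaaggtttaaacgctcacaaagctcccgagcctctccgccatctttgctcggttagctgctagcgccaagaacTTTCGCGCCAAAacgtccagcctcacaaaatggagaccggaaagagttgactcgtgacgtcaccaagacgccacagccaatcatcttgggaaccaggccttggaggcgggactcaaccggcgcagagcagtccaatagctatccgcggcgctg
Mcm6, chr1:128359706-128359955, minus strand: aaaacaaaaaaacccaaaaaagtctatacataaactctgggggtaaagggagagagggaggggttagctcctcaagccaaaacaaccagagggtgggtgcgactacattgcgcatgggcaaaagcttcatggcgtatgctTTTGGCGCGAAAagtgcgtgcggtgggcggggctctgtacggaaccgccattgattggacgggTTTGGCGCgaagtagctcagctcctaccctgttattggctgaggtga
Pola1, chrX:93632156-93632405, minus strand: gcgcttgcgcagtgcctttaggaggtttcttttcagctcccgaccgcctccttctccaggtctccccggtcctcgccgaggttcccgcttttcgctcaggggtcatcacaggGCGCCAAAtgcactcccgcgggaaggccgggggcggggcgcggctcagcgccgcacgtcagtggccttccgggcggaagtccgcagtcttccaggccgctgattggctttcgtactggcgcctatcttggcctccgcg

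Values are counts of unique molecular identifiers (UMIs), each standing for 1 captured message. Cells were kept with at least 500 genes and under 10% of UMIs on mitochondrially encoded genes, which left 2546 TGR and 3127 control cells. TGR cells were the deeper ones, with a median of 6266 UMIs against 4030 in control cells, so levels were compared after each cell had been thinned at random to 1500 UMIs. This left out 0 TGR and 91 control cells. The level is given in CPM, the count scaled to a common library total. Messages of ribosomal proteins made up 49.8% of the UMIs of the median TGR cell and 40.1% of those of the median control cell, and a larger share of these lowers the CPM of all other genes. Cells of both libraries carried the CD8 T cell messages. Without thinning, Cd8b1 was found in 89.8% of TGR and 81.6% of control cells and Cd3d in 97.7% of TGR and 89.5% of control cells. By level on all UMIs, Cd8b1 was at 440 CPM in TGR and 545 CPM in control, and Cd3d at 681 CPM in TGR and 677 CPM in control. The 7 markers of the CD8 T cell list summed to 2806 CPM in TGR and 3958 CPM in control. Of the markers of other classes, the B cell gene Cd79b was found in 8.68% of TGR and 7.74% of control cells, at 12.2 CPM in TGR and 17.9 CPM in control on all UMIs. Flt3 was at 0 UMIs in both libraries, Lyz2 at 0 UMIs in TGR and 1 in control, and Cd4 was found in 0.628% of TGR and 0.544% of control cells. The myeloid list summed to 61.9 CPM in TGR and 116 CPM in control on all UMIs, mostly from Cst3, and the dendritic list to 34.1 CPM in TGR and 21.8 CPM in control, mostly from H2-Ab1. Without the cells that held 3 or more UMIs of such markers, 19 of the 33 genes were lower on all UMIs, as many as with them. By the same rule, given below, 21.9% of all genes tested were lower and 9.20% higher. At 1500 UMIs per cell this filter gave 23 of the 33 lower, beside 21.7% of all genes, against 22 with these cells. Of those 22 calls, 20 were kept. The libraries shared 11 barcode sequences.

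A gene was called lower or higher when TGR and control differed by at least 1.5-fold and the 95% counting interval of the ratio excluded 1. The gene had to reach 10 CPM in TGR or in control. Intervals are exact, from the split of a gene's UMIs between the libraries, and cover counting error only. At 1500 UMIs per cell, 22 of the 33 genes were lower in TGR and 0 were higher. Among all 6686 genes tested in this way, 22.0% were lower and 10.0% higher. The count was smaller under a weighting. With TGR cells weighted to the control mix of mitotic gene levels, as described further on, 10 of the 33 were lower and 2 higher. Of all 6767 genes tested in that way, 19.4% were lower and 11.4% higher. The mitotic genes were themselves lower in TGR, and the cause of the change in the count was not tested. The median log2 ratio of TGR over control was −0.83 for the 33 genes and −0.16 for all genes tested. Summed over the members, TGR cells were at 1692 CPM and control cells at 3138 CPM, which is 1.85-fold lower (interval 1.80 to 1.91). Licensing genes summed to 471 CPM in TGR and 842 CPM in control, 1.79-fold lower (1.69 to 1.89), with 6 of 9 called lower. This sum includes Gmnn, the gene of a loading inhibitor, at 74.1 CPM in TGR and 210.4 CPM in control. Fork genes were at 527 CPM in TGR and 897 CPM in control, 1.70-fold lower (1.61 to 1.80), with 8 of 14 called. Nucleotide supply genes were at 443 CPM in TGR and 981 CPM in control, 2.22-fold lower (2.10 to 2.35), with 5 of 5 called, and their interval did not overlap those of the other roles. Repair and chromatin genes were at 252 CPM in TGR and 418 CPM in control, 1.66-fold lower (1.53 to 1.79), with 3 of 5 called. The 26 mitotic genes used below were all called lower too, at 1256 CPM in TGR and 3638 CPM in control when summed, and the part of this and of the ribosomal share in the members' values was not tested.

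**Figure D1:**
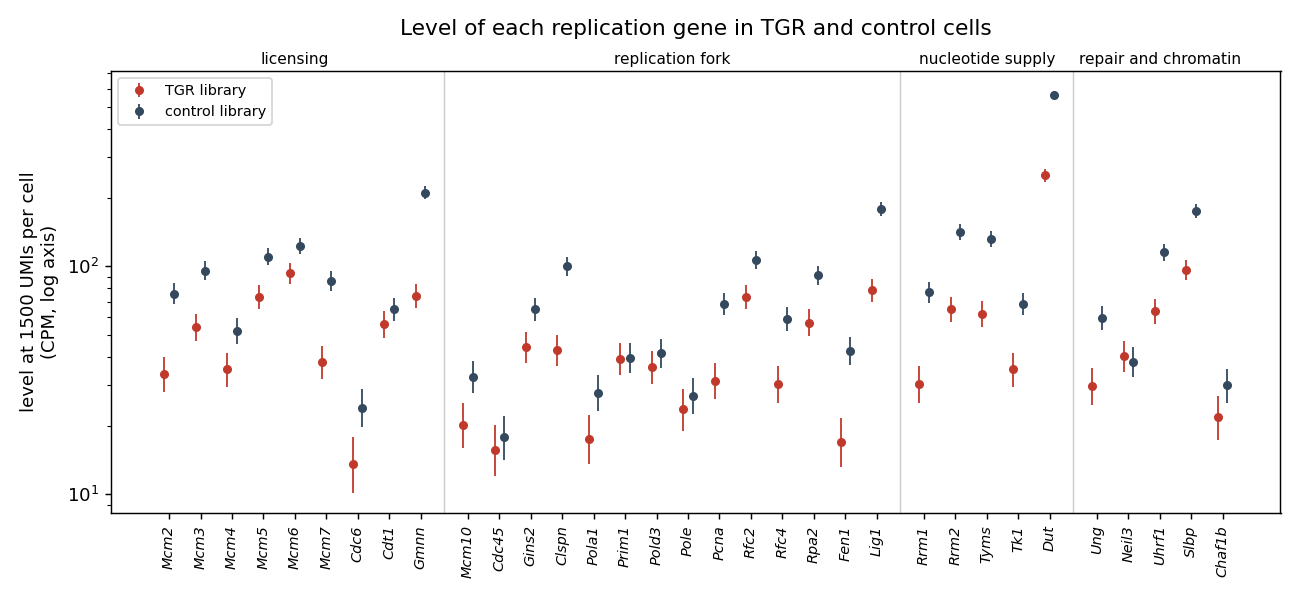
Level of each of the 33 genes at 1500 UMIs per cell in CPM on a log axis, with exact Poisson intervals as bars, for the TGR library (left of each pair) and the control library. Control lies above TGR for nearly every gene, and the pairs for Prim1 and Neil3 coincide within their bars.

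The subunits of the Mcm2 to Mcm7 helicase were below control in TGR cells by unequal amounts. Their proteins form a ring of 6 different subunits. Mcm7 was at 38.0 CPM in TGR and 85.9 CPM in control, 2.26-fold lower (1.86 to 2.76). Mcm2 was at 33.8 CPM in TGR and 75.8 CPM in control, 2.24-fold lower (1.83 to 2.77). Mcm6 was at 93.0 CPM in TGR and 122.7 CPM in control, and its 1.32-fold difference (1.15 to 1.51) did not meet the limit. The intervals of Mcm6 and of Mcm2 or Mcm7 did not overlap. Between these lay Mcm3 at 53.9 CPM in TGR and 95.7 CPM in control and Mcm5 at 73.3 CPM in TGR and 110.2 CPM in control, both called lower, and Mcm4 at 35.3 CPM in TGR and 52.0 CPM in control, 1.47-fold below control. For the 6 subunits summed, TGR was at 327 CPM and control at 542 CPM.

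The loading factors and their inhibitor lay farther apart than the helicase subunits. Gmnn encodes geminin, which binds Cdt1 and blocks a second round of loading, and had the lowest ratio of the 33 genes. It was at 74.1 CPM in TGR and 210.4 CPM in control, 2.84-fold lower (2.48 to 3.25), and was found in 10.2% of thinned TGR cells and 27.04% of thinned control cells. Cdt1, its target, was at 55.8 CPM in TGR and 65.0 CPM in control, with a ratio of 0.858 whose interval of 0.716 to 1.03 holds 1. The intervals of this pair of opposed factors were thus far apart. Cdc6, an ATPase that loads the helicase with Cdt1, was at 13.6 CPM in TGR and 23.9 CPM in control on 52 UMIs in TGR and 109 in control. It was called lower at 1500 UMIs per cell but not on all UMIs, where it was at 17.5 CPM in TGR and 23.2 CPM in control.

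At the replication fork, genes of the clamp and of lagging strand joining were lower in TGR, and most polymerase genes were closer to control. Fen1, the flap nuclease that trims Okazaki fragments, was at 17.02 CPM in TGR and 42.6 CPM in control, 2.49-fold lower (1.88 to 3.37). Lig1, the ligase that seals them, was at 78.3 CPM in TGR and 178.7 CPM in control, 2.28-fold lower (1.997 to 2.62). Pcna, the sliding clamp that both enzymes bind, was at 31.4 CPM in TGR and 68.3 CPM in control, 2.17-fold lower (1.76 to 2.71). These 3 and Clspn, which encodes the checkpoint mediator claspin (42.9 CPM in TGR and 99.9 CPM in control), had the lowest ratios among the fork genes at 1500 UMIs per cell. The clamp loader subunit Rfc4 and the single strand binding protein subunit Rpa2 were also called lower, at 30.4 CPM in TGR and 58.6 CPM in control for Rfc4 and 56.6 CPM in TGR and 91.1 CPM in control for Rpa2. Rfc2, of the same clamp loader as Rfc4, was at 73.3 CPM in TGR and 106.5 CPM in control and missed the limit at 1.45-fold.

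Among the polymerase genes, Prim1 was nearly the same in both libraries. It encodes the catalytic subunit of primase, which starts each new strand, and was at 39.3 CPM in TGR and 39.7 CPM in control, with a ratio of 0.988 (0.791 to 1.23). Pole, the catalytic subunit of the leading strand polymerase, was at 23.6 CPM in TGR and 27.01 CPM in control (ratio 0.873, 0.657 to 1.15). Pold3, an accessory subunit of the lagging strand polymerase, was at 36.1 CPM in TGR and 41.5 CPM in control (0.871, 0.694 to 1.09). For these 3 genes the interval holds 1, which does not show that the levels are equal. Pola1, the polymerase that works with primase, was called lower at 17.5 CPM in TGR and 27.9 CPM in control, but not on all UMIs. The helicase activators were mixed. Cdc45 was at 15.7 CPM in TGR and 17.8 CPM in control (0.884, 0.622 to 1.25), Gins2 at 44.3 CPM in TGR and 64.8 CPM in control and 1.46-fold below control, and Mcm10 at 20.2 CPM in TGR and 32.7 CPM in control, called lower only at 1500 UMIs per cell.

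All 5 nucleotide supply genes were lower in TGR at 1500 UMIs per cell, and no other role had every member called. With the mitotic gene weighting Rrm1 and Dut were still called, and Tk1 turned to a ratio of 1.09. Rrm1 and Rrm2 encode the large and small subunits of ribonucleotide reductase, which makes deoxynucleotides. Rrm1 was at 30.4 CPM in TGR and 77.1 CPM in control, 2.53-fold lower (2.05 to 3.16), and Rrm2 at 64.9 CPM in TGR and 141.6 CPM in control, 2.18-fold lower (1.88 to 2.54). Dut, the dUTPase that keeps uracil out of DNA and provides the substrate of thymidylate synthase, was at 250.3 CPM in TGR and 562 CPM in control, 2.25-fold lower (2.08 to 2.42). Tyms, thymidylate synthase, was at 61.8 CPM in TGR and 131.8 CPM in control, and Tk1, the thymidine kinase of dividing cells, at 35.3 CPM in TGR and 68.5 CPM in control. The 5 genes gave 26.2% of all member UMIs in TGR (exact interval 25.1 to 27.3) and 31.3% in control (30.5 to 32.0). Fork genes were at 31.1% (30.0 to 32.3) in TGR and 28.6% (27.9 to 29.3) in control. Licensing genes were at 27.8% in TGR and 26.8% in control, with intervals that overlap.

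The repair and chromatin genes included the member with the highest ratio. Neil3, a DNA glycosylase that acts on oxidised bases and crosslinks in dividing cells, was at 40.3 CPM in TGR and 38.0 CPM in control (ratio 1.06, 0.849 to 1.33). On all UMIs it was at 42.6 CPM in TGR and 35.6 CPM in control, with an interval of 1.07 to 1.34 that lies above 1 but under the limit of 1.5-fold. A repeat of the thinning with another random draw put it below 1, so no direction is given for it at 1500 UMIs per cell. Ung, the glycosylase that removes uracil from DNA, was at 29.9 CPM in TGR and 59.3 CPM in control, 1.98-fold lower (1.59 to 2.49). Uhrf1, which brings the maintenance methyltransferase to new DNA, was at 63.6 CPM in TGR and 115.3 CPM in control, and Slbp, which binds the stem-loop of histone messages, at 96.6 CPM in TGR and 175.2 CPM in control, each 1.81-fold lower. Chaf1b, a subunit of the histone chaperone CAF-1, was at 21.7 CPM in TGR and 30.1 CPM in control and missed the limit at 1.38-fold.

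**Figure D2:**
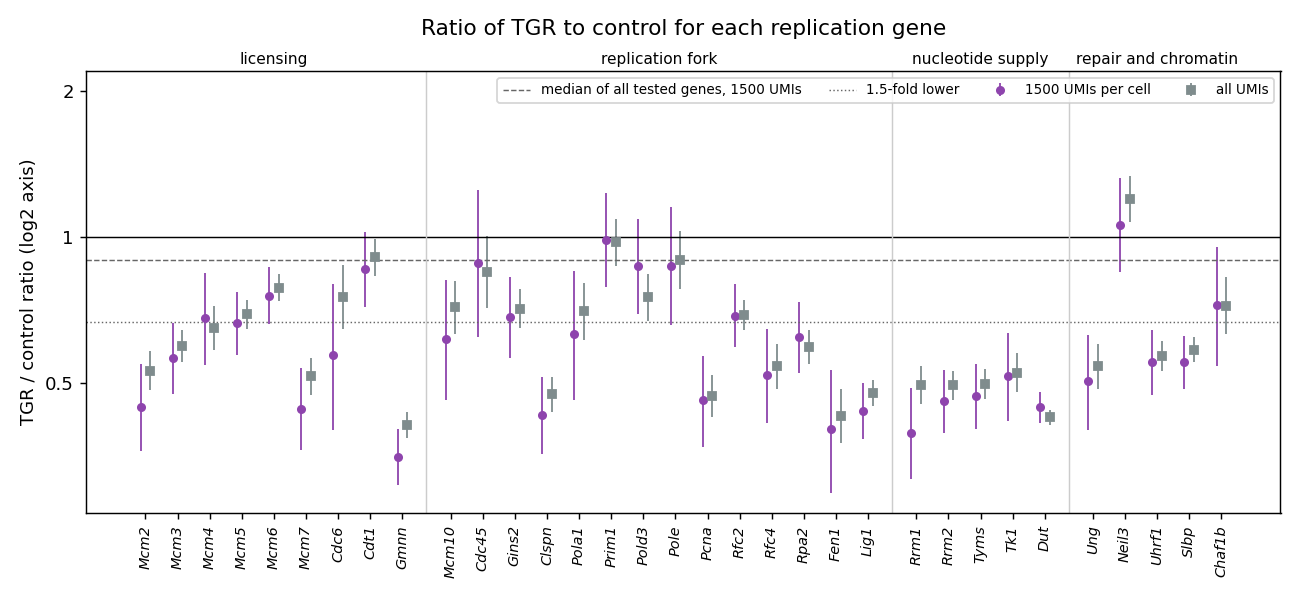
Ratio of TGR over control for each gene on a log2 axis with 95% counting intervals, at 1500 UMIs per cell and on all UMIs. Nucleotide supply genes lie near 0.5 or below, while Cdt1, Cdc45, Prim1, Pold3, Pole and Neil3 have intervals at 1500 UMIs that hold 1.

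Calls differed between the scales for 5 genes. A second random draw at 1500 UMIs per cell gave 23 genes lower, beside 22.0% of all genes tested. It kept 21 of the 22 calls of the first draw. On all UMIs 19 of the 33 genes were lower and 0 higher, where 21.8% of all 6667 genes tested were lower and 9.33% higher, and 18 genes were lower on both scales. Mcm4 was lower on all UMIs only, and Mcm5, Cdc6, Mcm10 and Pola1 at 1500 UMIs only. The share of cells with a UMI depended on depth. At 1500 UMIs per cell this share was higher in TGR for 1 gene, Neil3, at 5.50% of TGR cells and 5.40% of control cells, whereas without thinning it was higher in TGR for 14 genes. Mcm6, for example, was found in 43.8% of TGR and 40.4% of control cells without thinning, but in 13.0% of TGR and 16.8% of control cells after it. Dut was found in 30.2% of thinned TGR cells (exact interval 28.4 to 32.0) and 54.6% of thinned control cells (52.9 to 56.4), and in 70.1% of TGR and 83.8% of control cells without thinning. No cell class that lacks replication genes was present to measure free RNA. Among the 320 thinned TGR cells with 0 UMIs of a fixed list of 26 mitotic genes and at most 1 UMI of 67 other replication genes, Dut was found in 13.8%, Rrm2 in 0.313% and Rrm1 in 0%, which allows up to 0.938%. These cells had a median of 5353 UMIs before thinning. They were picked for few UMIs of related genes, so low shares of the members follow from the choice of cells. The shares therefore do not measure free RNA. Only 12 control cells met the same condition.

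The ratios and the number of calls differed with the totals used for scaling. When CPM was counted on totals free of ribosomal protein and mitochondrial messages, the summed ratio at 1500 UMIs per cell was 0.640 in place of 0.539, and 16 of the 33 genes were lower and 0 higher. On that scale 9.94% of all genes tested were lower and 19.5% higher, and their median log2 ratio was 0.15. Cdt1, Cdc45, Prim1, Pold3 and Pole joined Neil3 above a ratio of 1 there.

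The ratios of the 6 genes with these E2F letters ran from 0.443 to 0.758 at 1500 UMIs per cell with a median of 0.601, and those of the other 22 from 0.395 to 1.06 with a median of 0.518. All nucleotide supply genes lay among the 22. A match is a run of letters and no binding was measured here.

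Per cell, more TGR than control cells held no UMI of these genes. At 1500 UMIs per cell, 565 of 2546 TGR cells (22.2%, exact interval 20.6 to 23.9) and 71 of 3036 control cells (2.34%, 1.83 to 2.94) had 0 UMIs of all 33 genes. Without thinning these shares were 6.13% in TGR and 1.60% in control. The median was 2 member UMIs in TGR cells, with an interquartile range of 1 to 4, and 4 in control cells, with a range of 3 to 6. At the upper end, 4.44% of TGR cells and 14.6% of control cells had at least 8 member UMIs, and the highest cells held 14 in TGR and 16 in control. The libraries overlapped from 0 to 14 UMIs.

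**Figure D3:**
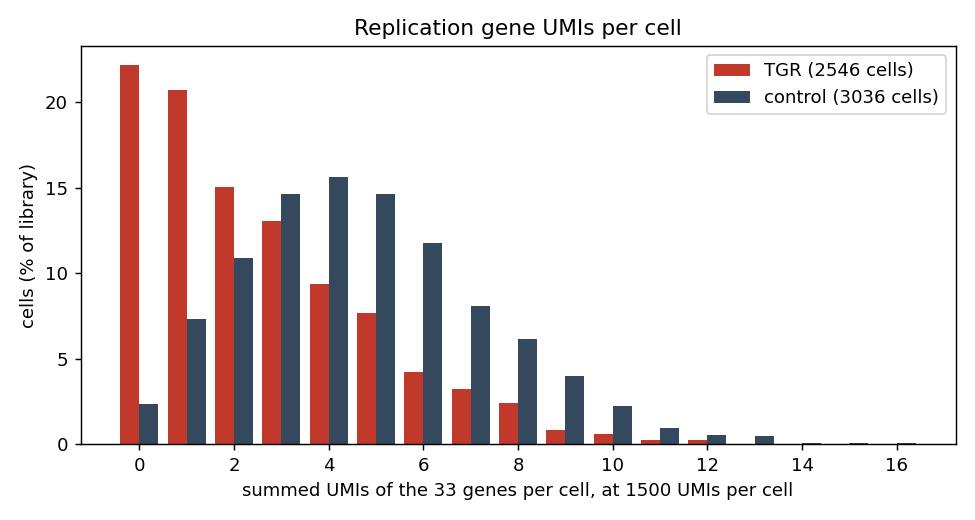
Share of cells in percent by the summed UMIs of the 33 genes per cell after thinning to 1500 UMIs, with TGR bars left of control bars. TGR cells pile up at 0 and 1, while control cells peak at 4.

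Cells were then compared at like levels of genes outside the list. In cells with 0 UMIs of the 26 mitotic genes, the members summed to 963 CPM in TGR (1061 cells) and 2307 CPM in control (139 cells), 2.40-fold lower (2.16 to 2.66). In cells with 6 or more mitotic UMIs they were at 2501 CPM in TGR (241 cells) and 2963 CPM in control (1273 cells), 1.18-fold lower (1.10 to 1.27). Single genes did not all follow the sum there. Ratios were below 1 for 23 of the 33, and 6 were called lower and 4 higher, beside 13.0% lower and 7.31% higher of all genes tested in these cells. The 4 were Neil3 at 102.4 CPM in TGR and 49.8 CPM in control, Tk1 at 113.4 CPM in TGR and 67.03 CPM in control, Prim1 at 74.7 CPM in TGR and 42.4 CPM in control, and Cdc45 at 38.7 CPM in TGR and 17.8 CPM in control on 14 UMIs in TGR. In cells with 0 mitotic UMIs 20 of the 31 genes that reached the minimum were lower and 0 higher, beside 9.61% lower and 2.64% higher. Between these, the difference was 1.72-fold at 1 to 2 mitotic UMIs and 1.32-fold at 3 to 5. At 1 to 2 mitotic UMIs 16 of the 33 were lower and 0 higher, beside 15.4% and 7.47% of all genes. At 3 to 5 there were 10 lower, and Cdt1 and Neil3 were higher, beside 16.3% lower and 9.10% higher. The same narrowing was seen over the 67 other replication genes, with a 2.64-fold difference (2.30 to 3.04) in cells with 0 to 1 of their UMIs and a 1.23-fold difference (1.18 to 1.29) in cells with 6 or more. TGR cells with 0 mitotic UMIs made up 41.7% of their library, against 4.58% of the control library. With so few UMIs per cell a level is sorted imprecisely, and equal counts do not show equal true levels. In the highest mitotic group the mean was 8.01 mitotic UMIs in TGR and 9.13 in control.

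Weighting the 4 groups of TGR cells as they occur in the control library, a step chosen after these values were seen, put the summed members at 2334 CPM in TGR against 3138 CPM in control. The ratio was then 0.744, with an approximate counting interval of 0.716 to 0.773. Summed by role, the ratio was 0.676 (0.628 to 0.727) for nucleotide supply genes and 0.705 (0.655 to 0.758) for licensing genes, with intervals that overlap. Among the nucleotide supply genes Dut was at 0.582 (0.526 to 0.645), Rrm1 at 0.615 (0.471 to 0.802), Tyms at 0.759 (0.631 to 0.914), Rrm2 at 0.803 (0.671 to 0.961) and Tk1 at 1.09 (0.854 to 1.38). Dut gave 328 of the 663 weighted CPM of this role in TGR and 562 of the 981 CPM in control. The ratio of the role thus rests mostly on Dut. Fork genes were at 0.813 (0.759 to 0.871) and repair and chromatin genes at 0.833 (0.754 to 0.920). By the same rule as before, 10 genes were lower: Mcm2, Mcm3, Mcm7, Gmnn, Pcna, Fen1, Lig1, Rrm1, Dut and Ung. Ung had the lowest ratio at 0.343 (0.249 to 0.472), and Mcm2 and Gmnn were at 0.509 and 0.528. Neil3 at 2.11 (1.65 to 2.71) and Cdc45 at 1.64 (1.11 to 2.44) were higher, and Prim1 at 1.49 (1.14 to 1.95) was just under the limit. Mcm10, Pola1 and Tk1, lower without the weighting, had ratios above 1 with intervals that hold 1. So did Cdt1, Pold3, Pole and Chaf1b, which were not called lower without it. Ratios were below 1 for 23 of the 33 genes. The median log2 ratio under the weighting was −0.40 for the 33 genes and −0.09 for all genes tested.

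Size of the cell's library showed the same contrast. Among cells with under 4000 UMIs, counted without thinning, the members were at 1103 CPM in TGR (396 cells) and 3168 CPM in control (1539 cells), 2.87-fold lower (2.72 to 3.03). All 33 were called lower there, beside 19.2% of all genes tested that were lower and 10.4% that were higher. Among cells with 4000 to 7000 UMIs they were at 1712 CPM in TGR and 3257 CPM in control, and 24 genes were lower beside 25.1% of all genes. Among cells with over 7000 UMIs they were at 1891 CPM in TGR (1049 cells) and 3089 CPM in control (525 cells), 1.63-fold lower (1.60 to 1.67). There 18 genes were lower, beside 23.8% of all genes, and Neil3 was higher at 48.7 CPM in TGR and 31.5 CPM in control, beside 11.2% of all genes higher. Across these bands the control level stayed between 3089 and 3257 CPM, while the TGR level was higher in the bands with more UMIs.

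**Figure D4:**
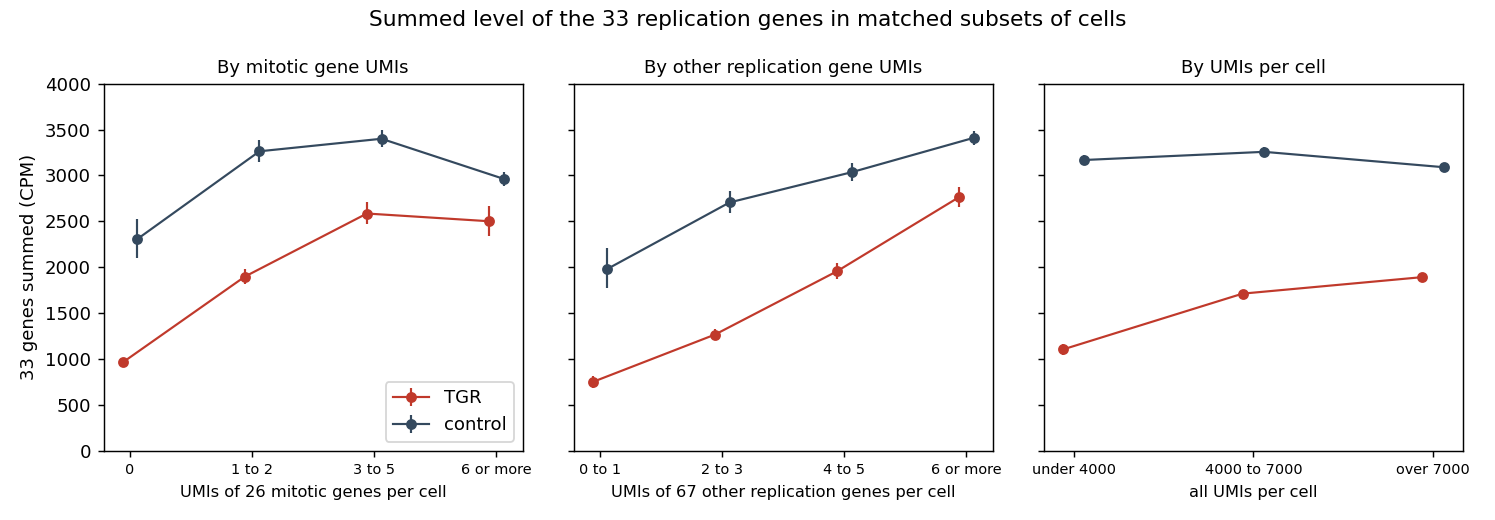
Summed level of the 33 genes in CPM in TGR and control cells, by UMIs of 26 mitotic genes and of 67 other replication genes (both at 1500 UMIs per cell) and by all UMIs per cell without thinning, with exact Poisson intervals as bars. TGR lies below control in every group of cells, by 2.40-fold at 0 mitotic UMIs and 1.18-fold at 6 or more.

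The members also differed in how they followed the mitotic genes within a library. In TGR, 19 genes had an interval above 1 for the ratio of their level in cells with 6 or more mitotic UMIs over cells with 0 to 2, where 10.6% of all genes did, and 1 had an interval below 1, where 4.70% did. In control 4 had an interval above 1, Rrm1, Rrm2, Tyms and Neil3, where 10.0% of all genes did. There 6 had an interval below 1, namely Mcm2, Mcm3, Mcm6, Rpa2, Dut and Ung, where 4.99% did. Dut was at 1.79 (1.48 to 2.15) in TGR and 0.872 (0.788 to 0.965) in control. Tk1 had the highest such ratio in TGR, 6.03 (3.95 to 9.41), at 113.4 CPM in the high and 18.5 CPM in the low cells, whereas in control it was 1.02 (0.763 to 1.38). Gmnn was at 2.31 (1.63 to 3.24) in TGR and 0.980 (0.834 to 1.15) in control, and Neil3 at 5.05 (3.28 to 7.90) in TGR and 1.95 (1.28 to 3.09) in control. Ung went the other way in both libraries and was the only gene to do so with both intervals below 1. It was at 11.1 CPM in mitotic-high and 36.0 CPM in mitotic-low TGR cells, and at 25.7 and 100.5 CPM in such control cells, with ratios of 0.313 (0.0821 to 0.812) in TGR, on 4 UMIs in the high cells, and 0.258 (0.179 to 0.360) in control. Of the helicase genes in TGR, Mcm5 was at 1.75 (1.197 to 2.51) and Mcm6 at 1.46 (1.03 to 2.02). The intervals of the other 4 subunits held 1, with Mcm7 at 1.52 (0.863 to 2.54) on 18 UMIs in the high cells. All these intervals overlap, so no division of the subunits is shown. In control Mcm3 was at 0.720 (0.557 to 0.929). The groups of cells were not alike in the libraries. Of the low cells, 1061 of 1833 in TGR and 139 of 763 in control had 0 mitotic UMIs. The high cells had a mean of 8.01 mitotic UMIs in TGR and 9.13 in control. The ratios of TGR and of control therefore set unlike groups against each other. Cells are not replicates, and the difference between the libraries in these ratios was not tested.

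**Figure D5:**
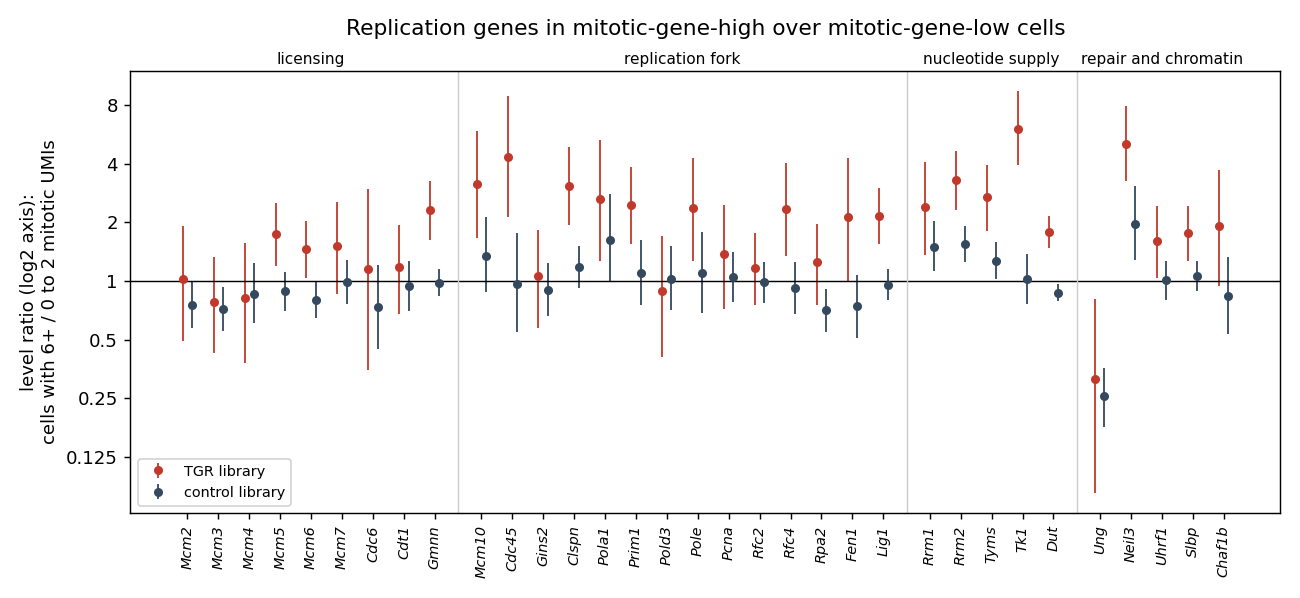
Ratio of each gene's level in cells with 6 or more UMIs of 26 mitotic genes over cells with 0 to 2, on a log2 axis with 95% counting intervals, for TGR (left of each pair) and control. Ung lies below 1 in both libraries, and Tk1 and Neil3 reach 6.03 and 5.05 in TGR.

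Of the 67 other replication and S phase genes listed for comparison, 60 were tested at 1500 UMIs per cell. The rule called 30 of these lower, beside 22.0% of all genes tested, and only 2 higher, beside 10.0%. Their log2 ratios had a median of −0.58, against −0.16 for all genes tested. Dctpp1, a pyrophosphatase that clears modified dCTP, was at 89.0 CPM in TGR and 281.7 CPM in control, 3.16-fold lower (2.81 to 3.58). Rnaseh2c, a subunit of ribonuclease H2, was at 44.0 CPM in TGR and 166.4 CPM in control, and Asf1b, a histone chaperone, at 25.9 CPM in TGR and 87.2 CPM in control. Tipin, a fork protection factor, was 1.80-fold lower at 126.2 CPM in TGR and 227.3 CPM in control, and Pole4, a small subunit of polymerase epsilon, missed the limit at 123.3 CPM in TGR and 166.7 CPM in control. The polymerase subunits Pold2 (30.9 CPM in TGR and 53.1 CPM in control) and Pole3 (56.6 CPM in TGR and 96.2 CPM in control) were called lower. Pola2, Prim2 and Pold1 were called neither lower nor higher, and Pole2 was under the minimum level. The higher genes were Pold4, a small subunit of polymerase delta, at 134.9 CPM in TGR and 50.7 CPM in control, 2.65-fold (2.27 to 3.12), and Rrm2b, the p53-inducible small subunit of ribonucleotide reductase, at 11.52 CPM in TGR and 4.83 CPM in control on 44 UMIs in TGR and 22 in control, named after its value was seen. Samhd1, which breaks down deoxynucleotides, was at 219.7 CPM in TGR and 147.6 CPM in control, a ratio of 1.49 just under the limit, and was called higher on all UMIs. Rrm2b reached the minimum level through TGR alone, and on all UMIs it was under it at 7.62 CPM in TGR and 5.09 CPM in control.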

How the data were processed

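Single-cell libraries were made with the 10x Chromium platform (v2 kit), per the labels. The deposited matrices hold raw UMI counts per gene and cell barcode, with 2548 TGR and 3336 control barcodes and 19702050 and 15103830 UMIs. Cell Ranger 2.2, Seurat 3 and mm10 are named in the submitters' processing notes without their steps, and whether counting used strand is not given in the sources used here. The exons of 10 members overlap a gene on the opposite strand, and processed pseudogenes of Tyms and Pcna are annotated in GENCODE M21, so those values could include reads of another gene.

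Filters removed 2 TGR and 209 control barcodes. Kept cells were thinned without replacement to 1500 UMIs (Python 3.11.15, numpy 2.4.6), UMIs were summed by library, and 0.5 UMI was added per library to each log2 ratio. Exact Clopper-Pearson intervals (scipy 1.17.1) cover counting error only. Doublets were not called, and leaving out the 5% of cells with the most UMIs was tried instead. The alternatives were edgeR 4.0.16 and DESeq2 1.42.0 scaling factors, other totals, filters, depths and folds. The ratio was tested on simulated data. The members and lists were chosen with earlier results of these data known. All 33 members are named, with the 4 other replication genes highest in mean level, the 4 with the largest change, and genes in counts of 5 or fewer. The remaining polymerase and primase subunits of the comparison list were named after their values were seen.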

Additional observations from a re-analysis of the deposited data

How the results depend on the processing

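No paired analysis was possible because each condition has 1 library. At 1500 UMIs per cell 16 to 24 members were lower, beside 9.89% to 32.2% of all genes tested, except in these settings. A limit of 2-fold left 11, beside 7.64% of all genes. Mitotic groups weighted as in control, chosen after seeing the data, left 10, beside 19.4%. On all UMIs 14 to 24 members were lower, beside 10.1% to 34.2% of all genes. The exceptions there were a limit of 2-fold (9, beside 7.87%) and cells with under 4000 UMIs (33, beside 19.2%). Counts are out of 33 members except with a minimum of 50 CPM, where 23 members were tested. With that minimum 18 were lower on each scale, beside 32.2% of all genes at 1500 UMIs per cell and 34.2% on all UMIs. Members called higher were 0 but for Neil3 in cells with over 7000 UMIs and Neil3 and Cdc45 under the mitotic weighting. Of all genes tested, 3.31% to 23.1% were higher in these settings. The summed ratio of TGR over control on all UMIs, 0.562, became 0.579 with edgeR TMM factors, 0.674 without ribosomal protein and mitochondrial genes in the totals, and 0.548 without the 5% of cells with the most UMIs. It was 0.348, 0.526 and 0.612 in cells with under 4000, 4000 to 7000 and over 7000 UMIs. At 1500 UMIs per cell the ratio of 0.539 became 0.640 without ribosomal protein and mitochondrial genes in the totals. It was 0.630 when cells were thinned to 750 UMIs outside those genes, and 0.744 with the mitotic weighting. The other settings kept it between 0.524 and 0.541. Under the weighting 23 of the 33 members had ratios below 1. The log2 ratios of Mcm10, Pola1 and Tk1, called lower without it, turned to 0.071, 0.0026 and 0.12. Of 627 values of single members under the alternatives, 156 others left the counting interval of the value reported. The cause of these shifts was not tested. At 1500 UMIs per cell Cdc6 and Cdc45 rest on 52 to 109 UMIs per library, and the bounds of their intervals lie about 2-fold apart. Fen1, Pola1, Mcm10, Chaf1b and Pole rest on 65, 67, 77, 83 and 90 UMIs in TGR. The bounds of their intervals lie only somewhat closer together.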
